A study of Mus musculus with 2 samples.

Results

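Heat shock and chaperone genes encode the proteins that fold newly made polypeptides and refold damaged ones. The genes described here are the mouse protein-coding genes whose symbol begins with Hspa, Hspb, Hspd, Hspe, Hsph, Hsp90, Dnaja or Dnajb, or is Cct followed by a digit, in the annotation of build NCBIM37. They number 55 of 22350 protein-coding genes on the autosomes and X. Hspa14 has 2 gene records whose starts lie 55 bp apart, and the longer was used. The rule works on symbols, so it also takes in Hspbp1 and Hspbap1, which bind HSP70 and a small heat shock protein, and leaves out Tcp1, the first subunit of the CCT ring.

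The cells were 3T3 fibroblasts of mouse embryonic origin labelled as lacking Ccnd1, the gene for cyclin D1 (CCND1-/-), and as carrying FLAG-tagged cyclin D1 (Flag-CCND1) from the retroviral vector MSCV. Both libraries came from these untreated cells, so the deletion and the transgene are shared by both, and cells without the tagged protein are not analysed here. After fixation in 1% formaldehyde (15 min), 1 library was made from chromatin precipitated with the M2 antibody against FLAG and 1 from chromatin precipitated with normal mouse IgG, which gives the background. Their comparison asks at which chaperone genes the anti-FLAG library held a larger share of its sequenced DNA than the IgG library. Since the tagged protein is expressed from a vector, these cells do not show where cyclin D1 made from its own gene would lie.

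HSP70 proteins bind unfolded stretches of polypeptide and release them in a cycle driven by ATP, J-proteins start that cycle, and nucleotide exchange factors of the HSP110 type end it. HSP90 acts later on kinases, receptors and other clients, while the chaperonins enclose a protein in a chamber and small heat shock proteins hold unfolded proteins in solution. Some of these genes are switched on by heat shock factor, others by stress in the endoplasmic reticulum (ER), and many are expressed in every growing cell. Cyclin D1 activates CDK4 and CDK6 in the G1 phase and has also been found on chromatin.

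The anti-FLAG library held 9259840 tags and the IgG library 9312346, so IgG counts were multiplied by 0.994. A window of 1 kb either side of a transcription start site (TSS) would hold 7.02 anti-FLAG and 7.06 IgG tags at the genome-wide mean. Each antibody has a single library and so no replicate. Each test compares these libraries and not the antibodies in general, and every interval is a 95% interval that covers counting error only. Far from any TSS the anti-FLAG to IgG ratio rose with the GC content of 500-bp windows, from 0.678 at 24 to 26% GC to 2.18 at 60 to 62%. Counts are therefore also given with a GC correction, in which the expected ratio of a promoter is that of distant windows of the same GC. As a check of the labelled deletion, the first 3 introns of Ccnd1, 4860 bp together, held 1 anti-FLAG tag and 0 IgG tags. Intron 4 held 14 and 4 over 1244 bp and the exons, which the vector may carry in part, 44 and 16, so tags are missing over part of the gene and not over all of it.

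Before the GC correction, the anti-FLAG library had more tags than the scaled IgG library around most chaperone gene starts. The excess lay close to the TSS. Within 1 kb, 53 of the 55 genes had more anti-FLAG than scaled IgG tags, 96.4% against 76.3% of all protein-coding genes. The genes had 4 to 39 anti-FLAG tags, with a median of 21, and 1 to 16 IgG tags, with a median of 8. Over all 55 genes the median log2 ratio, with 1 tag added to each count, was 1.13, against 0.59 over all protein-coding genes. The tags of all 55 windows, overlapping windows counted once, gave a ratio of 2.37 (2.13 to 2.65), against 1.66 (1.65 to 1.67) over all promoters. At 2 to 10 kb from the starts the ratio was 1.15 (1.10 to 1.20), and in the gene bodies beyond 1 kb it was 1.07 (1.02 to 1.11).

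Of the 55 genes, 39 had at least 20 tags in both libraries together and were tested. By the exact binomial test with Benjamini-Hochberg adjustment over 10947 promoters, 16 were higher in the anti-FLAG library and 0 lower. Among all promoters tested, 29.6% were higher and 0.0913% lower. Since the minimum counts anti-FLAG tags too, a gene can enter the test through the library in which it is then called higher. The 16 were Dnajb12, Hspa2, Hspa5, Cct3, Dnajb11, Dnajb1, Hspb2, Hspbp1, Cct4, Hsp90aa1, Hspa13, Hsp90ab1, Cct6a, Hspa1b, Hsp90b1 and Hspa1l. Each of them had at least 25% of its anti-FLAG tags on each strand. With the GC correction 3 passed, Dnajb12, Hspa5 and Cct3, where 3.52% of all promoters tested did. In that correction the expected ratio was averaged over the promoter by its IgG tags. Averaged with equal weights, a form chosen after the data were seen, it left 0 chaperone genes and 0.283% of all promoters. An unadjusted p under 0.05 in the direction of anti-FLAG excess was then found for 5 of the 39 chaperone genes and 1010 of the 10947 promoters tested. Another annotated TSS lay within 2 kb for 22 of the 55 genes, 20 of them among the 39 tested. Tags counted for these genes cannot be given to the chaperone gene alone.

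Within 500 bp of the TSS the ratio was higher. The 55 windows together gave 3.41 (2.87 to 4.07), against 2.14 (2.12 to 2.16) over all promoters, and the median log2 ratio was 1.40 against 0.81. At this width 40 genes had the required 10 tags and 17 were higher, beside 33.3% of all promoters tested. Both windows gave 12 genes in common. Cct7, Cct8, Hsph1, Hspa4 and Hspbap1 passed within 500 bp alone, and Hspb2, Hsp90aa1, Hspa1b and Hspa1l within 1 kb alone. With the GC correction 1 gene passed, Hspa13, beside 2.02% of promoters, and with equal weights 0, beside 0.443%. An unadjusted p under 0.05 in the direction of anti-FLAG excess was then found for 6 of the 40 chaperone genes and 1113 of the 10381 promoters tested.

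**Figure D1:**
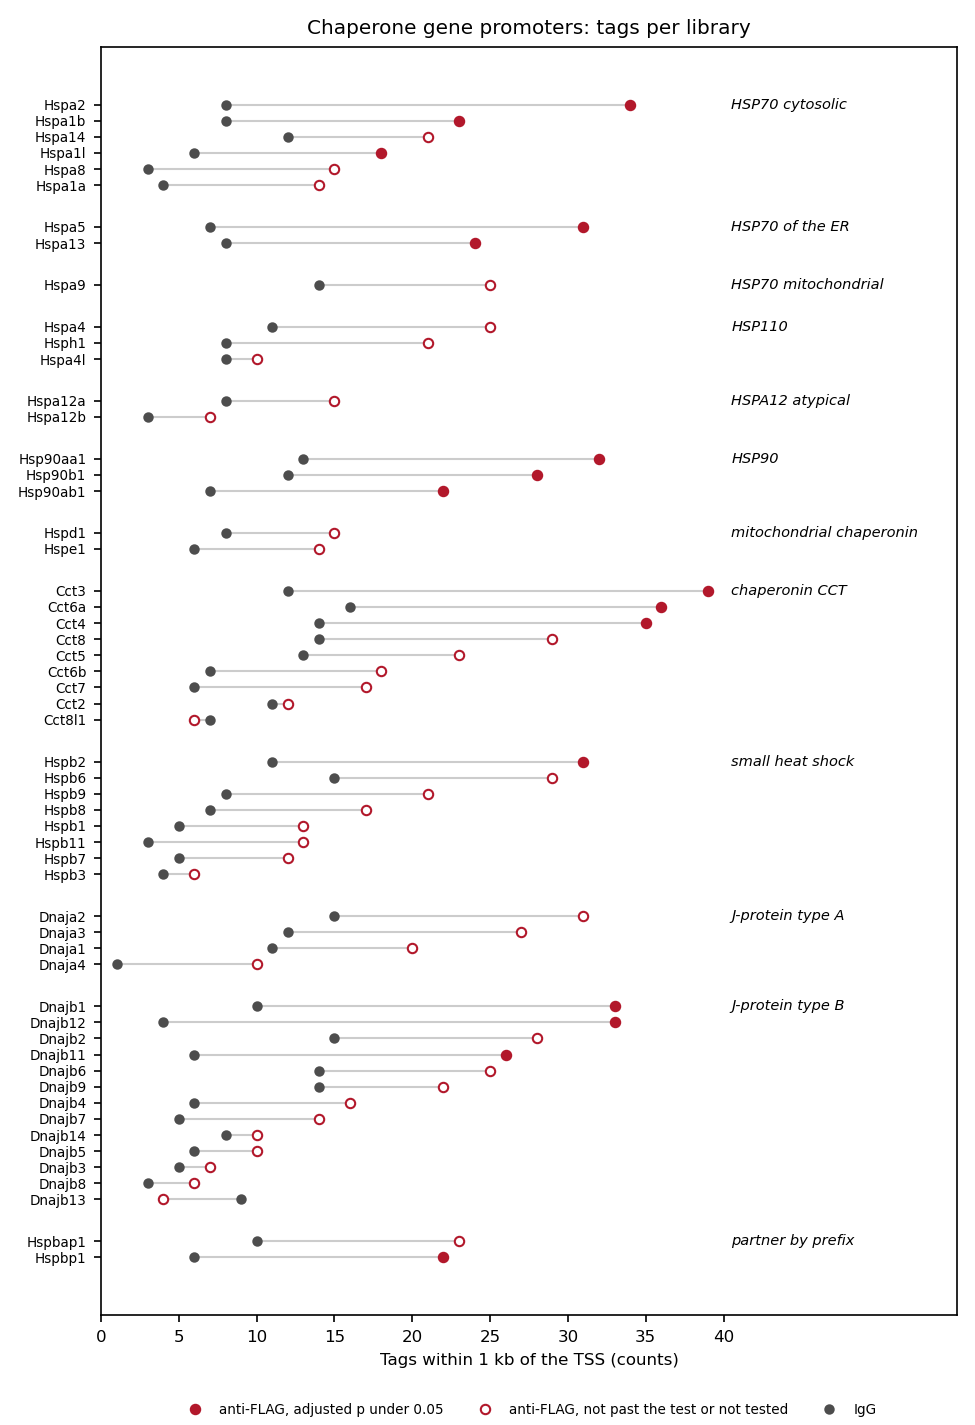
Tags within 1 kb of the TSS for each of the 55 genes, grouped by family; the x axis gives unscaled counts, red circles the anti-FLAG library (filled where the adjusted p is under 0.05) and grey circles the IgG library. The anti-FLAG circle lies to the right of the grey circle in every gene except Cct8l1 (6 against 7 tags) and Dnajb13 (4 against 9).

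The plot of tags by family shows that the genes spread more widely in the anti-FLAG library, from 4 to 39 tags, than in the IgG library, from 1 to 16. All 3 HSP90 genes and both ER HSP70 genes passed the test within 1 kb. The mitochondrial chaperones and the J-proteins of type A had 0 past it of 3 tested each, and the HSP110 genes 0 of 2. With 29.6% of all tested promoters higher, families this small cannot be told apart by such counts, and no difference between families was tested.

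The average profile had a peak in the anti-FLAG library and a dip in the IgG library at the same place. Anti-FLAG density over the 55 genes was 12.3 tags per kb and gene within 250 bp of the TSS and 5.57 at 4 to 5 kb, a ratio of 2.20. It was highest, at 14.5, in the 100-bp bin centred 250 bp upstream. Scaled IgG density was 2.26 within 250 bp and 4.94 at 4 to 5 kb, a ratio of 0.457, and fell to 0.723 in the bin 50 bp downstream. Over all protein-coding genes the 2 ratios were 1.93 and 0.656. The anti-FLAG to IgG ratio at these starts therefore holds a rise in one library and a fall in the other. For single genes, anti-FLAG tags within 1 kb exceeded the gene's own level at 2 to 10 kb in 43 of 55, and IgG tags lay under it in 34. Of the 16 genes that passed, 16 had anti-FLAG tags above their own flank and 9 had IgG tags below it. These 16 were picked by the tags of the same windows, so their counts follow in part from that choice. The comparison with the flank was not made for all protein-coding genes. The part of GC coverage in the IgG dip was not tested.

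**Figure D2:**
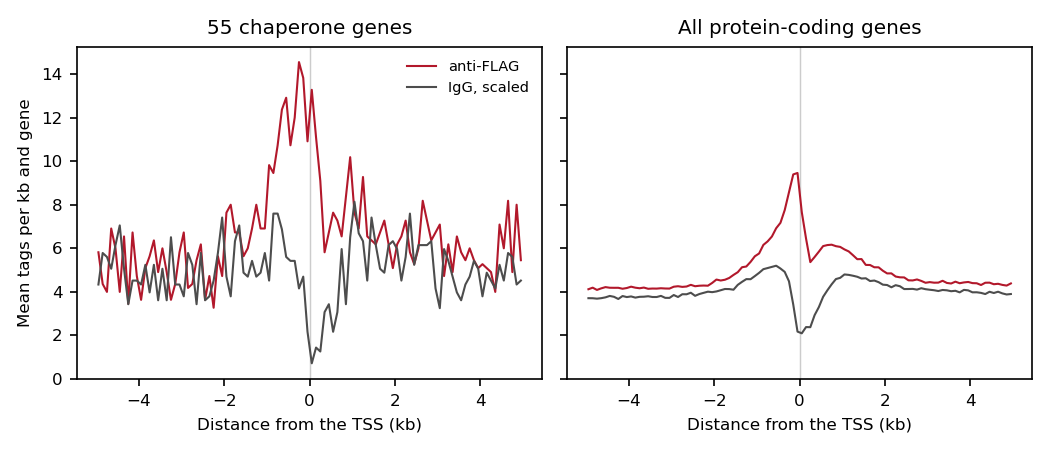
Mean tags per kb and gene in 100-bp bins from 5 kb upstream to 5 kb downstream of the TSS, for the 55 chaperone genes (left) and all protein-coding genes (right), with anti-FLAG in red and scaled IgG in grey. The red line peaks just upstream of the TSS in both panels, at 14.5 tags per kb for the chaperone genes, while the grey line dips just downstream, to 0.723.

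Among cytosolic HSP70 genes, which number 6, 3 passed the test within 1 kb. Hspa2, best known for its role in male germ cells, had 34 anti-FLAG and 8 IgG tags, a ratio of 4.27 (1.94 to 10.7; exact binomial adjusted p = 0.00127). Within 500 bp its counts were 26 and 2 (exact binomial adjusted p = 0.000181), the smallest p of the list at that width. The tags of Hspa2 stood mostly downstream of the TSS, with 23 anti-FLAG tags there and 11 upstream. With the GC correction its adjusted p was 0.187 by the same exact binomial test, and the start of a long noncoding RNA, 4930426I24Rik, lies 522 bp away. Hspa8, the constitutive HSP70 that is abundant in all cells, had 15 and 3 tags, 18 in all, under the minimum for a test. Its ratio was 5.03 (1.42 to 27.1). Within 500 bp Hspa8 had 7 anti-FLAG tags against 0, 2.35-fold higher when the IgG count is set to the floor of 3. The lower 95% limit of that ratio from the counts themselves was 1.45. Hspa14, which works at the ribosome, had 21 and 12 tags, a ratio of 1.76 (0.827 to 3.92; exact binomial adjusted p = 0.213).

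Hspa1a and Hspa1b encode the heat-inducible HSP70 and are near-identical copies on chromosome 17, with Hspa1l, a relative expressed in testis, next to Hspa1a. Hspa1b had 23 and 8 tags, a ratio of 2.89 (1.25 to 7.48; exact binomial adjusted p = 0.0291), and Hspa1a 14 and 4, a ratio of 3.52 (1.11 to 14.7), too few for a test. Of the 36-bp stretches within 1 kb of the start, 46.9% occur once in the genome for Hspa1b and 44.98% for Hspa1a. For Hspa1b the unique share was 82.2% upstream and 11.6% downstream, and 22 of its 23 anti-FLAG tags lay upstream. The counts of this pair are uncertain, because tags from their transcribed parts can rarely be placed. Hspa1l had 18 and 6 tags, a ratio of 3.02 (1.15 to 9.28; exact binomial adjusted p = 0.0484), but its start lies 579 bp from that of Hspa1a, so the windows share tags.

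The promoters of Hspa1b and Hspa8 are shown because they stand for an inducible and a constitutive gene. Each is the 250 bases upstream of the TSS, 5′ to 3′ on the gene's strand, at chr17:35096184-35096433 (minus strand) and chr9:40608817-40609066 (plus) of build NCBIM37. Capitals mark matches to GAANNTTC, a pair of heat shock factor half-sites, and to CCAAT or its reverse complement ATTGG.
Hspa1b: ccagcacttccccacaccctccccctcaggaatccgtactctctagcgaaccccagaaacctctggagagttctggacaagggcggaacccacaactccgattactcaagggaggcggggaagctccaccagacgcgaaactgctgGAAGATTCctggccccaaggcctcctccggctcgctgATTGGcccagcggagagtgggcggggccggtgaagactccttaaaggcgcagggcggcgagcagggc
Hspa8: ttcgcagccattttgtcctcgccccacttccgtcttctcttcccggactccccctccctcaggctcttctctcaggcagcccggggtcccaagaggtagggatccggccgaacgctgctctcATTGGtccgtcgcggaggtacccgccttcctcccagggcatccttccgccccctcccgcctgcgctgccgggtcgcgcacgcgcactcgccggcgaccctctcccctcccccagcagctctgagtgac
Hspa1b holds 1 heat shock pair and 1 ATTGG, and Hspa8 an ATTGG. These letters are a description of the DNA that was counted and do not show what was bound.

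Both ER members of the HSP70 family were higher in the anti-FLAG library. Hspa5 encodes BiP, the main chaperone of the ER lumen and a classical gene of the unfolded protein response. It had 31 anti-FLAG and 7 IgG tags, a ratio of 4.45 (1.92 to 11.98; exact binomial adjusted p = 0.00172). With the GC correction the exact binomial adjusted p was 0.0355, and with equal weights 0.373. Its tags lay mostly upstream of the start, 23 of 31, and all 7 IgG tags were there too. Hspa13, a microsomal HSP70, had 24 and 8 tags, a ratio of 3.02 (1.31 to 7.77; exact binomial adjusted p = 0.0218). Within 500 bp it had 16 and 1, and this was the only chaperone gene past the test with the GC correction at that width (exact binomial adjusted p = 0.0460).

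The Hspa5 promoter, at chr2:34627240-34627489 on the plus strand, is shown because the gene passed with the GC correction. Capitals mark CCAAT or ATTGG, of which it has 3.
Hspa5: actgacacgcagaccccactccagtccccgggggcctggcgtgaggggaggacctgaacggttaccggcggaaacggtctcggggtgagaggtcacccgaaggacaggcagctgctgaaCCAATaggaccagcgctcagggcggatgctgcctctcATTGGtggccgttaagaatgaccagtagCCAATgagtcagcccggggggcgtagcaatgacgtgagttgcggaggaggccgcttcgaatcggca

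Hspa9, the mitochondrial HSP70 mortalin, had 25 and 14 tags, a ratio of 1.80 (0.898 to 3.74; exact binomial adjusted p = 0.157). The other pair that folds proteins in mitochondria is Hspd1, for HSP60, and Hspe1, for its lid HSP10. They share a promoter region, with starts 111 bp apart, so their windows hold nearly the same tags. Hspd1 had 15 and 8 tags, a ratio of 1.89 (0.750 to 5.14; exact binomial adjusted p = 0.249), and Hspe1 14 and 6, a ratio of 2.35 (0.847 to 7.45; exact binomial adjusted p = 0.155). These 3 genes had more anti-FLAG than IgG tags, but their intervals include 1.

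The HSP110 genes encode nucleotide exchange factors for HSP70. Hsph1 had 21 and 8 tags, a ratio of 2.64 (1.12 to 6.89; exact binomial adjusted p = 0.0520), and within 500 bp 12 and 2 (exact binomial adjusted p = 0.0277). Hspa4 had 25 and 11 within 1 kb (exact binomial adjusted p = 0.0594) and 17 and 3 within 500 bp (exact binomial adjusted p = 0.0100). Hspa4l had 10 and 8, under the minimum. For Hsph1 and Hspa4 the call thus turns on the width of the window. The HSPA12 genes, distant relatives, had 15 and 8 tags for Hspa12a and 7 and 3 for Hspa12b.

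The HSP90 genes were 3, and all passed within 1 kb, though only Hsp90ab1 did when tags were not shifted. Hsp90aa1, the inducible cytosolic form, had 32 and 13 tags, a ratio of 2.48 (1.26 to 5.14; exact binomial adjusted p = 0.0218). Hsp90ab1, the constitutive cytosolic form, had 22 and 7, a ratio of 3.16 (1.30 to 8.76; exact binomial adjusted p = 0.0242). Hsp90b1, which encodes GRP94 of the ER, had 28 and 12, a ratio of 2.35 (1.16 to 5.07; exact binomial adjusted p = 0.0406). None of the 3 passed with the GC correction, and for Hsp90ab1 the adjusted p was then 0.8995 by the exact binomial test. The result for Hsp90aa1 depended on which start was used. Its annotated start lies 6439 bp upstream of that of the transcript with the longest coding sequence, around which 18 and 9 tags were counted (exact binomial adjusted p = 0.166). With unshifted tags the exact binomial adjusted p was 0.0579 for Hsp90aa1 and 0.0818 for Hsp90b1.

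The cytosolic chaperonin CCT, also called TRiC, is a double ring that folds actin and tubulin. It has 9 genes in the list, of which 3 passed within 1 kb and 5 within 500 bp. Cct3 had the most anti-FLAG tags of all 55 genes, 39 against 12, a ratio of 3.27 (1.68 to 6.86; exact binomial adjusted p = 0.00239), and passed with the GC correction (exact binomial adjusted p = 0.0293; 0.218 with equal weights). Cct4 had 35 and 14, a ratio of 2.51 (1.32 to 5.06; exact binomial adjusted p = 0.0151), and Cct6a 36 and 16, a ratio of 2.26 (1.22 to 4.37; exact binomial adjusted p = 0.0251). Cct7 and Cct8 passed within 500 bp alone, with 9 against 1 and 20 against 7 tags. Cct2 was the tested chaperone gene with the lowest ratio, at 12 and 11 tags, 1.10 (0.443 to 2.74; exact binomial adjusted p = 0.9002), and Cct5 had 23 and 13, a ratio of 1.78 (0.864 to 3.82; exact binomial adjusted p = 0.182). Cct6b, a testis form, had 18 and 7 tags, and Cct8l1 had 6 and 7. Tcp1, the first subunit of the same ring, had 29 and 10, a ratio of 2.92 (1.38 to 6.71; exact binomial adjusted p = 0.0141).

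The tested CCT genes ranged from a ratio of 1.10 at Cct2 to 3.27 at Cct3, and those intervals overlap. The promoters of Cct3 and Cct2 are shown as the highest and lowest of the tested CCT genes, with capitals at CCAAT or ATTGG. For Cct3 only the 116 bases to the start of the neighbouring gene 1700021C14Rik are given, at chr3:88100922-88101037 on the plus strand, and for Cct2 the 250 bases at chr10:116500871-116501120 on the minus strand.
Cct3: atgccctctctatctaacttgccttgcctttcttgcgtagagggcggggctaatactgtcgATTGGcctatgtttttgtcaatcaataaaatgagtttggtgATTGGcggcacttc
Cct2: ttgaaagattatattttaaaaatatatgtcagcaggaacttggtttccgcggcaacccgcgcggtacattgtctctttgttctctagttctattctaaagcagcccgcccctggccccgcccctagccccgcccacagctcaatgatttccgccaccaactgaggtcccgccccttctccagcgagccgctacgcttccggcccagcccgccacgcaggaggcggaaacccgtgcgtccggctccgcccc
Cct3 has 2 copies of ATTGG and Cct2 has 0 in this window. Cct3 and Cct6a each share their promoter with a divergent gene, 117 and 186 bp away, and tags there cannot be given to either gene alone. The same limit holds for Cct5, Cct6b and Cct7, which have another start 5, 24 and 465 bp away.

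The genes grouped as small heat shock protein genes, by the symbol Hspb and a digit alone, had few tags, with medians of 15 (anti-FLAG) and 6 (IgG). Of 8 genes, 4 were tested and Hspb2, a muscle gene, passed with 31 and 11 tags, a ratio of 2.83 (1.39 to 6.25; exact binomial adjusted p = 0.0126). Its counts within 500 bp were 10 and 7 (exact binomial adjusted p = 0.592), and the start of Cryab, for the lens chaperone alpha B-crystallin, lies 404 bp away. Hspb1, for HSP27, had 13 and 5 tags, a ratio of 2.61 (0.875 to 9.37), under the minimum. Of the other genes, Hspb9 had 21 and 8, Hspb6 29 and 15, Hspb8 17 and 7, Hspb7 12 and 5, Hspb11 13 and 3, and Hspb3 6 and 4.

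J-proteins stimulate the ATPase of HSP70 and bring it clients. Of the 4 type A genes, 0 passed: Dnaja2 had 31 and 15 tags, Dnaja3, the mitochondrial one, 27 and 12, Dnaja1 20 and 11, and Dnaja4 10 and 1. For Dnaja1 the ratio was 1.83 (0.835 to 4.22; exact binomial adjusted p = 0.197). Of the 13 type B genes, 3 passed. Dnajb12, a J-protein of the ER membrane with its J domain facing the cytosol, had the highest ratio of the tested genes, at 33 against 4 tags, 8.30 (2.95 to 32.2; exact binomial adjusted p = 0.000103). It passed with the GC correction (exact binomial adjusted p = 0.00275) but not with equal weights (0.101). Within 500 bp it had 19 and 0 tags, 6.37-fold higher when the IgG count is set to the floor of 3. From the counts themselves, the lower limit of the interval of that ratio was 4.69.

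Dnajb11, a J-protein partner of BiP in the ER, had 26 and 6 tags, a ratio of 4.36 (1.75 to 12.9; exact binomial adjusted p = 0.00420), with the divergent gene Tbccd1 starting 276 bp away. Dnajb1, the heat-inducible HSP40, had 33 and 10, a ratio of 3.32 (1.598 to 7.55; exact binomial adjusted p = 0.00484). Neither passed with the GC correction, with adjusted p of 0.160 and 0.285 by the exact binomial test. Dnajb9, an ER gene of the unfolded protein response, stood near the bottom, with 22 and 14 tags, a ratio of 1.58 (0.773 to 3.34; exact binomial adjusted p = 0.293). Of the rest, Dnajb2 had 28 and 15, Dnajb6 25 and 14, Dnajb4 16 and 6, and Dnajb7 14 and 5. Dnajb3, Dnajb5, Dnajb8, Dnajb13 and Dnajb14 had 4 to 10 anti-FLAG and 3 to 9 IgG tags, of which Dnajb13, a sperm protein, had 4 against 9.

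The promoters of Dnajb1, the inducible J-protein, and Dnajb12, the gene of smallest p within 1 kb, lie at chr8:86131824-86132073 and chr10:59342054-59342303, both on the plus strand. Capitals mark CCAAT or ATTGG.
Dnajb1: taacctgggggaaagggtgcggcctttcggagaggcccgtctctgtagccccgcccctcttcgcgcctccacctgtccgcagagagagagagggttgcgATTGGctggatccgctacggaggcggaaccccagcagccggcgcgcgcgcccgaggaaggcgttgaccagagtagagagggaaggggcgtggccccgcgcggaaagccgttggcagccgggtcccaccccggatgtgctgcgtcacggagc
Dnajb12: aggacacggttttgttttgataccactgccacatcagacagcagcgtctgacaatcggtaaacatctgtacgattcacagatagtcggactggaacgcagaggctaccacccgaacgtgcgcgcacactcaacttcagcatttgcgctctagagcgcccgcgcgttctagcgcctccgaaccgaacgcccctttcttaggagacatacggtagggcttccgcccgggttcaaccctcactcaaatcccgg
Dnajb1 has 1 match and Dnajb12 has 0. Hspbp1, a nucleotide exchange factor that the symbol rule brought in, had 22 and 6 tags, a ratio of 3.69 (1.45 to 11.1; exact binomial adjusted p = 0.0143), and Hspbap1 23 and 10, a ratio of 2.31 (1.06 to 5.44; exact binomial adjusted p = 0.0675).

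**Figure D3:**
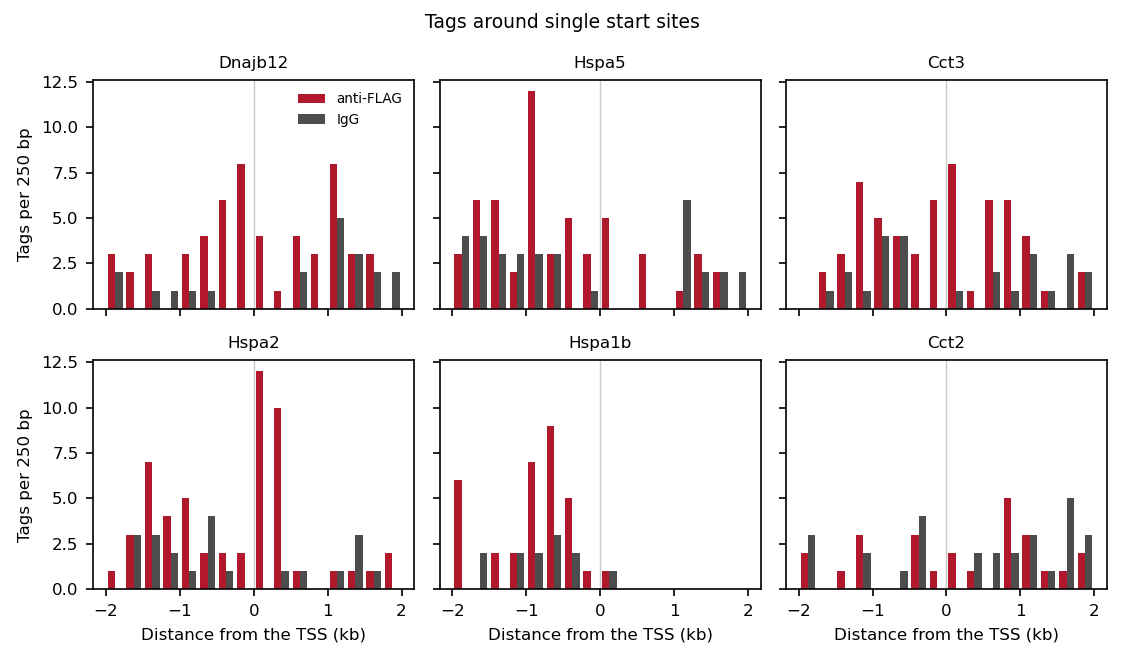
Tags in 250-bp bins within 2 kb of the TSS of 6 genes, with distance from the TSS in kb on the x axis, unscaled tags per bin on the y axis, anti-FLAG in red and IgG in grey. Hspa2 has its tallest bins just downstream of the TSS, Hspa5 and Hspa1b upstream of it, and Cct2 has no bin in which anti-FLAG stands far above IgG.

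The position of the tags differed between genes, as the plots of single start sites show. Dnajb12 had 21 anti-FLAG tags upstream and 12 downstream of its start, with 2 and 2 IgG tags, and Hspbp1 had 17 and 5 against 0 and 6. In a call of regions, 500-bp windows with at least 10 anti-FLAG tags, 2-fold over background and a Poisson p under 1e-05, 11 of the 55 windows overlapped a region, where 7.34% of all promoters did. These were Dnajb12, Hspa2, Cct3, Dnajb1, Hspbp1, Cct4, Hsp90aa1, Hspa13, Hspa4, Hspb6 and Dnajb6. The window of highest significance held 21 anti-FLAG tags and 1 IgG tag at Hspa2, and 15 and 0 at Dnajb12. With the GC correction 2 overlapped, Dnajb12 and Hspb6, beside 2.85% of all promoters. Hspb6 did not pass the test over its whole window, and its region was centred at -697 bp, upstream of the TSS.

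The GC content of the 55 promoters had a median of 55.1%, against 51.1% over all genes, and 23 of them lay between 55 and 60%. At 45 to 50% GC the 8 chaperone genes had a median log2 ratio of 1.19, against 0.47 over 4825 genes of that class, and 5 of the 6 tested passed, beside 22.97% of all promoters tested in that class. These were Cct3, Cct4, Cct6a, Hsp90aa1 and Hspa13. At 50 to 55% the medians were 1.11 and 0.76, and 2 of 12 tested passed, beside 30.2%. At 55 to 60% the medians were 1.12 and 0.96, and 8 of 16 passed, beside 37.7%. At 60 to 65% the medians were 1.37 and 1.14, and 1 of 5 passed, beside 46.5%. The calls thus went above the share of all promoters at 45 to 50% and 55 to 60% GC and below it at 50 to 55% and 60 to 65%. Tag numbers differed too, and promoters with more tags pass more readily. At 45 to 50% GC the chaperone genes had medians of 30.5 anti-FLAG and 12.5 IgG tags, against 11 and 9 over all genes. The shares in that class therefore do not compare promoters of like depth. Over all 55 genes the median log2 ratio with the GC correction was 0.59 against 0.26 over all genes, and with equal weights 0.38 against 0.06. The median of the chaperone genes lay above that of all genes in each of these 4 GC classes, by the most at 45 to 50%. That difference was not tested.

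**Figure D4:**
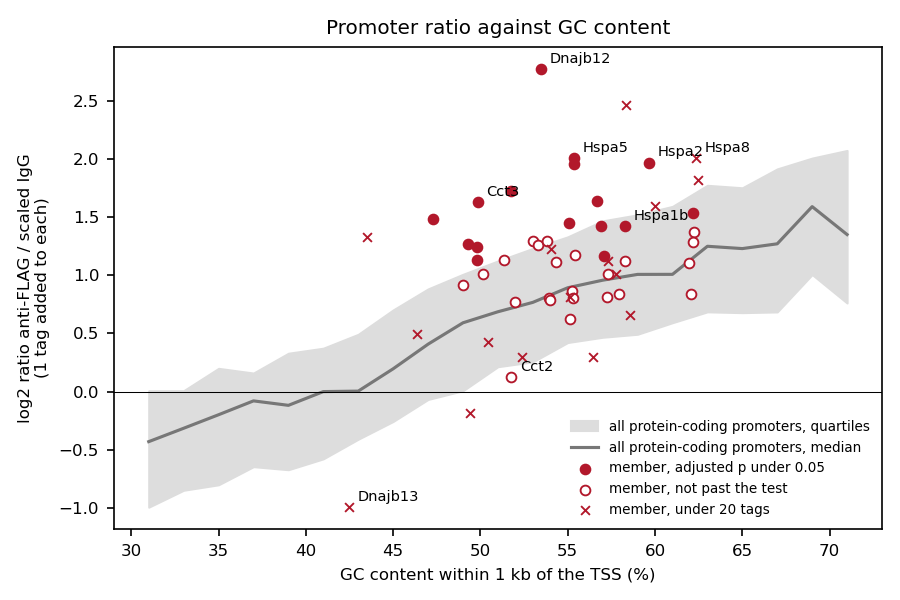
Log2 ratio of anti-FLAG to scaled IgG tags within 1 kb of the TSS, with 1 tag added to each count, against the GC content of the window in percent; filled circles are chaperone genes past the test, open circles those not past it and crosses those with under 20 tags, while the grey line and band give the median and quartiles of all protein-coding promoters. The grey line rises with GC, and Dnajb12, Hspa5 and Cct3 lie above the band while Cct2 and Dnajb13 lie low.

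Related genes were set against each other in 11 pairs, by Fisher's exact test on their tags. No pair passed, with a Benjamini-Hochberg adjusted p = 1 by that exact test in each. The intervals are wide. The odds ratio of Hspa8 against Hspa9 was 2.75 (0.617 to 17.4), of Hsp90aa1 against Hsp90ab1 0.786 (0.227 to 2.54), of Dnajb1 against Dnaja1 1.80 (0.577 to 5.71) and of Cct2 against Cct5 0.622 (0.187 to 2.04). Differences of severalfold between the members of a pair were therefore not detectable at this depth.

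In the 250 bases upstream of each start, searched on both strands, GAANNTTC was found in 7 of the 55 genes (12.7%) and in 6.47% of all protein-coding genes. The 7 were Cct8l1, Hspa1a, Hspa1b, Hspa9, Hspb1, Hspb3 and Hspe1, of which Hspa1b passed the test. The opposite arrangement, TTCNNGAA, was found in 5.45% and 6.59%, and the heat shock element of 3 units at Hspe1 alone (1.82% and 0.389%). The ER stress element, CCAAT(N9)CCACG, was found as an exact match at Hsp90b1 alone (1.82% and 0.0984%). Near matches to this or any other motif were not searched. The CRE, TGACGTCA, was found at Hsp90ab1 (1.82% and 1.91%) and the AP-1 motif TGANTCA in 5 (9.09% and 6.004%). GGGCGG, the GC box, was found in 37 genes (67.3% and 39.6%), CCAAT in 22 (40% and 35.0%) and TATAAA in 3 (5.45% and 12.3%). The chaperone promoters also had more GC, with medians of 60.1% against 54.7% within 500 bp. The motif shares were not adjusted for GC content. Of the E2F motifs, TTTCCCGC was found in 0 genes and TTTGGCGC in 2, Cct3 and Dnajb9 (3.64% and 0.510%). The element of 3 units contains both pairs, other motifs may overlap too, and windows of neighbouring genes share bases.

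Chaperone pathway genes that the symbol rule leaves out were counted in a list of 65, made up of co-chaperones, ER folding enzymes, stress regulators, prefoldins, other J-proteins and mitochondrial quality control. Of these 58 were tested and 24 were higher, beside 29.6% of all promoters tested, and 0 passed with the GC correction, beside 3.52%. The 3 of smallest p were Ahsa1, the activator of the HSP90 ATPase, with 43 and 11 tags, a ratio of 3.93 (1.99 to 8.45; exact binomial adjusted p = 0.000488), Stub1, the ubiquitin ligase CHIP, with 27 and 4, and Calr, for calreticulin, with 36 and 9. The lowest ratios among those tested were at Eif2ak3, for the ER stress kinase PERK, with 16 and 17 tags, and Pfdn1, a prefoldin subunit, with 17 and 18. By class, 10 of 20 tested genes grouped as co-chaperones passed, and Tcp1, a CCT subunit, was counted among these 10. So did 7 of 12 ER folding genes, 3 of 5 genes of the unfolded protein response and 2 of 11 other J-proteins. Of the prefoldins 0 of 4 passed, and of the heat shock factor and mitochondrial quality groups 1 of 3 each. The heat shock factor gene Hsf1 was higher, with 27 and 10 tags (exact binomial adjusted p = 0.0242), while Hsf2 had 17 and 12 (exact binomial adjusted p = 0.481).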

How the data were processed

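Chromatin precipitated with anti-FLAG or with normal mouse IgG was sequenced in 1 library each, with chromatin sheared to 300 to 500 bp, per the labels' protocols. The deposited files hold tag positions, 1 line per 36-bp tag, and the deposited score column is 512 in every line and was not used. The sources used here do not name an aligner, build or filter. Tag positions fitted the chromosome lengths of NCBIM37, so that build was used, with the GENCODE vM1 annotation. Within a library each tag had its own position and strand.

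Tags were moved 76 bp downstream, taken from the 152-bp lag between strands in the anti-FLAG library. Those within 1 kb or 500 bp of the 5' end of each gene record were counted. Promoters with at least 20 (1 kb) or 10 (500 bp) tags in both libraries together were tested by the two-sided exact conditional binomial test, scaled by library totals, with Benjamini-Hochberg adjustment at 0.05 over all protein-coding genes. For the GC correction, windows over 10 kb from every TSS were grouped by 2 GC points. Ratios over 0 IgG tags used a floor of 3 counts. Python 3.11.15, NumPy 2.4.6, SciPy 1.17.1, Numba 0.67.0 and Matplotlib 3.10.9 were used, and the test was run on simulated data first.

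Named genes were those past the test within 1 kb (up to the 12 of smallest p), those past it with the GC correction, the 4 lowest ratios tested, and a set of well-known chaperone genes; of the pathway list, the 3 of smallest p and the 2 of lowest ratio. Every member is also given by family, and Hsf1 and Hsf2 were named after their values were seen. The members, lists and tests were chosen with earlier results of these data known. Promoter bases were read from the NCBIM37 genome; those of Hspd1 and Hspe1 lie in annotated exons and are not shown, and 1 other promoter sequence is not reported here. Alternatives changed scaling, tag shift, window, minimum, start site, pseudocount and GC correction.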

Additional observations from a re-analysis of the deposited data

How the results depend on the processing

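The counts depended most on the GC correction. Of 16 genes higher within 1 kb, 3 passed with it and 0 with its equal-weight form, which was added after the data were seen; within 500 bp, 17 became 1 and 0. The pooled ratio of 2.37 within 1 kb became 1.64 and 1.32, and that of 3.41 within 500 bp became 1.90 and 1.63. No corrected pooled ratio over all promoters is given here to set beside these. The median log2 ratio of all protein-coding genes within 1 kb was 0.26 with the correction and 0.06 with equal weights. The 11 genes overlapping a region became 2 with the correction and 3 at a Poisson p under 1e-07. Scaling by background bins, a factor of 0.909, raised the count within 1 kb to 26 of 39 tested, and the share over all promoters from 29.6% to 37.7%. A doubled tag minimum left 12 and 10 genes tested, of which 10 and 8 were higher, beside 55.5% and 62.4% of all promoters. Unshifted tags, the other start site, the 2.5-kb window and a halved minimum left both counts within 1.5 times, but the genes called changed. Unshifted tags kept 14 of the 16 genes higher within 1 kb, the other start site 15 and the halved minimum 14. The 2.5-kb window kept 8 of the 16, and 6 of the 17 higher within 500 bp. With minimums of 20 and 10 tags that window called 13 and 12 genes, beside 10.5% and 9.61% of all promoters tested. The halved minimum called 16 and 14, beside 16.6% and 17.6%. Of the 39 genes tested singly, 16 had a call, of which 13 lost it with the correction and 16 with equal weights. Under the alternatives run for single genes, 0 calls reversed. Fewer than 39 genes were compared with unshifted tags (38) and within 500 bp (35). The sign of the log2 ratio did change for some genes without a call. With equal weights it went from 0.123 to -0.545 at Cct2 and from 0.837 to -0.512 at Hspd1. No paired analysis was possible because each antibody has 1 library. Depth limits the rest: 16 genes had under 20 tags, and most tested ones had intervals spanning severalfold.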
